A study of Arabidopsis thaliana with 12 samples.

Results

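The KNOX and BELL homeobox genes of *Arabidopsis thaliana* were followed through 4 conditions of a seedling RNA-seq experiment. The 10 genes were taken by their identifiers from a count table of 34262 genes. They were the class I *KNOX* genes *STM*, *KNAT1*, *KNAT2* and *KNAT6*, the class II *KNOX* genes *KNAT3*, *KNAT4*, *KNAT5* and *KNAT7*, and the *BELL* genes *PNY* and *PNF*. KNOX and BELL proteins belong to the TALE superclass of homeodomain transcription factors and bind DNA as heterodimers of a KNOX and a BELL partner. Class I *KNOX* genes are active in the shoot apical meristem, where they keep cells undifferentiated, and *STM* is required to form and maintain the meristem alongside *WUSCHEL* (*WUS*). Class II *KNOX* genes are expressed broadly in differentiating organs and have been described as acting against the class I genes.

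RNA was taken from seedlings 5 days after germination, of a line carrying *pUBI10::mCherry-GR-linker-WUS* (WUS-GR) or of wild type Col-0. The labels name the promoter pUBI10 and the study's methods pUBQ10. WUS-GR is 1 homozygous line with a single insertion, in which a promoter active in nearly all tissues makes a fusion of WUS and the hormone-binding part of the glucocorticoid receptor, held inactive until dexamethasone (DEX) is added. Seedlings spent 2 h in DEX with 1 µM trichostatin A (TSA), an inhibitor of histone deacetylases, or in DEX without TSA, with 3 biological replicates for each of the 4 groups. The groups were therefore WUS-GR in DEX and TSA, Col-0 in DEX and TSA, WUS-GR in DEX, and Col-0 in DEX. The labels give 25 µM DEX for all groups, and the study's methods state another concentration. All groups were given DEX and WUS-GR seedlings without DEX were not analysed here, so the activity of WUS and any other difference between the lines cannot be told apart. *WUS* itself had 94664 to 142276 counts in the 6 WUS-GR libraries, against 27 to 52 in the 6 Col-0 libraries.

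The shared feature that places all 10 genes in one superclass can be read in their coding sequence. Each line below holds 27 coding bases in the sense direction from the RefSeq annotation of TAIR10.1, with the 9 bases of the proline-tyrosine-proline codons of the TALE loop in capitals. The genomic span beside each name includes an intron, since the window is spliced.
*STM* (chr1:23059000-23059654, minus strand): tacaaatggCCTTACCCTtcggagcaa
*KNAT1* (chr4:5148170-5148879, minus strand): tacaagtggCCATATCCTtctgagtca
*KNAT2* (chr1:26581878-26581995, plus strand): aataaatggCCTTACCCTactgaaggc
*KNAT6* (chr1:8297652-8297767, minus strand): tataagtggCCTTACCCTactgaagga
*KNAT3* (chr5:8737746-8737850, plus strand): tccaaatggCCTTACCCTactgaggaa
*KNAT4* (chr5:3512419-3512603, plus strand): tctaagtggCCTTACCCTactgaggaa
*KNAT5* (chr4:15495667-15495774, plus strand): tcgaaatggCCATACCCAactgaggaa
*KNAT7* (chr1:23339728-23340213, plus strand): tgcaaatggCCTTACCCTacggaagat
*PNY* (chr5:397564-397944, plus strand): ttcttgcatCCTTATCCAacagataca
*PNF* (chr2:11922354-11922476, minus strand): tttcttcatCCGTACCCCactgattct

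Proline-tyrosine-proline occurred 1 time in the translation of the longest coding sequence of each gene. The intron fell after base 21 of the window in all 8 *KNOX* genes and after base 11 in both *BELL* genes, so the gene structure separated the families as their sequence did. Its length ran from 78 bp in *KNAT3* to 683 bp in *KNAT1*. *KNAT3* and *KNAT4*, which moved together in the results below, shared an identical stretch of 41 bp in their transcripts, as did *KNAT2* and *KNAT6*. *KNAT5* and *KNAT7* shared 31 bp. How reads inside such stretches were counted is not given in the sources used here. None of the 10 genes overlapped an exon of another gene on either strand.

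The motif TTAATGG, a sequence that WUS binds in an *AGAMOUS* enhancer, was searched on both strands from 250 bases before to 50 bases after each annotated start. It was found in 2 of the 10 genes, *KNAT4* and *KNAT5*, and in 8.1% of 27432 windows of this kind. The match began 84 bases before the start of *KNAT4* and 201 bases before that of *KNAT5*. It stands in capitals in the following stretches of TAIR10.1.
*KNAT4* (chr5:3509738-3509767, plus strand): tgacgtcattaTTAATGGtcccctccttcc
*KNAT5* (chr4:15493777-15493806, plus strand): ctacaatgagtTTAATGGtaaatatactta
TCACGTGA, another motif reported for WUS, was found in 0 of the 10 windows and 0.587% of all, and TGACAGGT, which holds the core that KNOX proteins bind, in 0 of the 10 and 0.357% of all. These matches describe the letters of the windows only.

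The 12 libraries held 14810658 to 21578662 counts each. Scaling factors by trimmed mean of M values (TMM) were 0.842 to 0.850 in WUS-GR with DEX and TSA, 0.981 to 1.01 in Col-0 with DEX and TSA, 1.11 to 1.13 in WUS-GR with DEX, and 1.04 to 1.07 in Col-0 with DEX. Plastid-encoded genes held 0.315 to 1.32% of the counts in the WUS-GR libraries, against 0.0778 to 0.170% in the Col-0 libraries, and the part of this difference in the results was not tested. Counts of the green tissue markers *RBCS1A* and *LHCB1.1* summed to 28258 or more in every library. The 4 root markers *EXPA7*, *COBL9*, *SMB* and *PLT1* summed to 0 to 6 counts, with *COBL9* at 0 in all 12 libraries, although the material was labelled as whole seedlings. The stem cell marker *CLV3* had 0 to 4 counts and the dry seed marker *CRA1* 0 to 3. The flower markers *AP1*, *AG* and *LFY*, with *AP1* at 0 in all 12 libraries, summed to 13 to 18 counts in WUS-GR with DEX and TSA, against 16 to 25 in Col-0 with DEX and TSA, and to 15 to 23 in WUS-GR with DEX, against 3 to 6 in Col-0 with DEX. *AG* had 0 to 1 count, so these sums were almost wholly *LFY*. *LFY* was higher in WUS-GR in DEX (edgeR adjusted p = 0.00326) and did not pass in DEX and TSA (edgeR adjusted p = 0.922). The part of these markers in the results was not tested.

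Levels of the 10 genes were compared with each other as CPM, the counts scaled to library size, per kb of exon. *KNAT5*, a class II gene, was by far the most abundant in each condition, with 54.0 ± 5.57 CPM per kb in WUS-GR with DEX and TSA, 59.2 ± 4.07 in Col-0 with DEX and TSA, 75.2 ± 2.80 in WUS-GR with DEX, and 66.0 ± 1.55 in Col-0 with DEX (SD, n = 3 each). No other gene reached 12 CPM per kb in any library. In Col-0 with DEX the order of mean levels per kb below *KNAT5* was *KNAT3*, *KNAT4*, *PNY*, *KNAT6*, *KNAT1*, *STM*, *KNAT2*, *KNAT7* and *PNF*. Neighbours whose libraries overlapped in this order were *KNAT3* and *KNAT4*, *PNY* and *KNAT6*, *KNAT1* and *STM*, and *KNAT7* and *PNF*. *PNF* was lowest there at 0.229 ± 0.0691 CPM per kb.

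**Figure D1:**
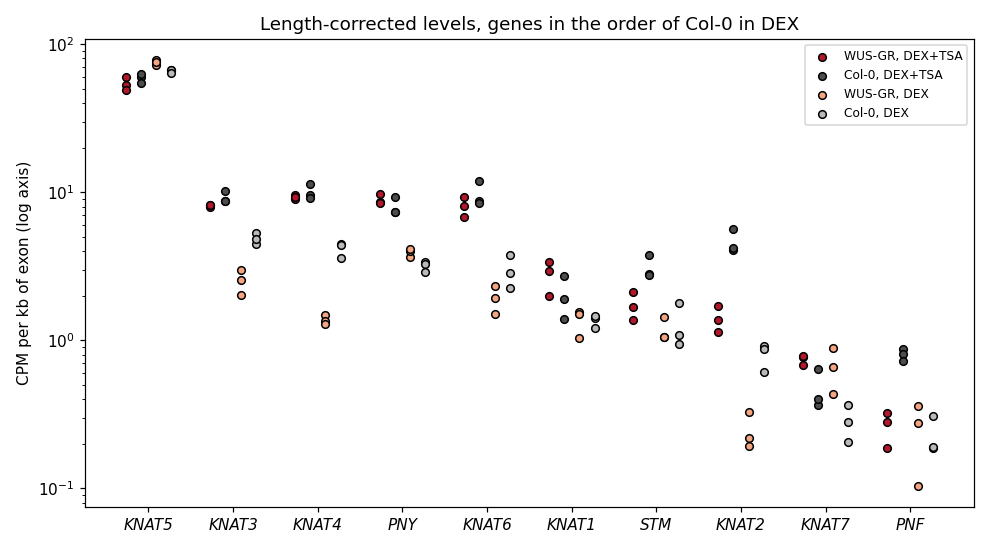
Level of each gene in CPM per kb of exon (log axis), genes ordered by their mean in Col-0 with DEX, with 1 point per library and 3 libraries for each of the 4 groups. *KNAT5* lies between 49.3 and 77.9 CPM per kb in the 12 libraries, above every other gene.

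The order of the levels differed between groups. In WUS-GR with DEX, *PNY* was the second at 3.92 ± 0.247 CPM per kb and *KNAT4* was the fifth at 1.37 ± 0.0906, with libraries that overlapped those of *KNAT1*. *KNAT2* was last in that group at 0.245 ± 0.0716 CPM per kb, overlapping *PNF*. With DEX and TSA, *KNAT4* was the second in both genotypes, at 9.29 ± 0.295 CPM per kb in WUS-GR and 10.04 ± 1.17 in Col-0. In WUS-GR with DEX and TSA, the libraries of *KNAT4* overlapped those of *PNY*. In Col-0 with DEX and TSA, the libraries of *KNAT4* overlapped those of *KNAT6*, which in turn overlapped *KNAT3*, and *KNAT3* overlapped *PNY*. The 4 class I genes together summed to 11.6 to 15.4 CPM per kb in WUS-GR with DEX and TSA, against 16.7 to 24.02 in Col-0 with DEX and TSA. Their sum was 4.24 to 5.00 CPM per kb in WUS-GR with DEX, against 5.65 to 7.38 in Col-0 with DEX, so neither pair of groups overlapped. The sums were not tested. Of all single genes tested, 64.9% did not overlap in DEX and 62.1% in DEX and TSA. Taken singly, *STM*, *KNAT1* and *KNAT6* overlapped between genotypes in DEX. In DEX the means per kb were 0.245 against 0.801 for *KNAT2* and 1.915 against 2.947 for *KNAT6*. They were close for *STM* (1.18 against 1.27) and *KNAT1* (1.36 in both). In DEX and TSA the mean of *KNAT1* was higher in WUS-GR, at 2.77 against 2.00. The 4 class II genes, most of whose sum is *KNAT5*, summed to between 67.8 and 84.6 CPM per kb in the 12 libraries.

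WUS-GR was compared with Col-0, both in DEX, without and with the deacetylase inhibitor. All 10 genes passed the filter on low counts in every comparison. In DEX, *KNAT5*, *KNAT7* and *PNY* were higher in WUS-GR and *KNAT2*, *KNAT3* and *KNAT4* were lower, which makes 6 of the 10 genes at an adjusted p under 0.05 in edgeR. Of all 17285 genes tested, 57.9% passed in this comparison, 29.3% as higher and 28.6% as lower, so the share among the 10 was near the background. The median log2 fold change of the 10 genes was -0.02, against 0.02 for all genes tested. The 3 libraries of WUS-GR did not overlap those of Col-0 for the same 6 genes, where 64.9% of all genes tested did not overlap. In DEX and TSA, *STM*, *KNAT2* and *PNF* were lower in WUS-GR and the other 7 genes did not pass. The share of all 16873 genes tested that passed there was 54.8%, with 27.8% lower. The groups did not overlap there for 5 of the 10 genes, against 62.1% of all genes tested. *KNAT2* was the single gene of the 10 that passed in both conditions. Scaling by library totals alone, which moved the median log2 fold change over all genes to -0.24 in DEX and TSA, called 7 of the 10 genes as lower there, with *KNAT3*, *KNAT4*, *KNAT5* and *KNAT6* added.

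**Figure D2:**
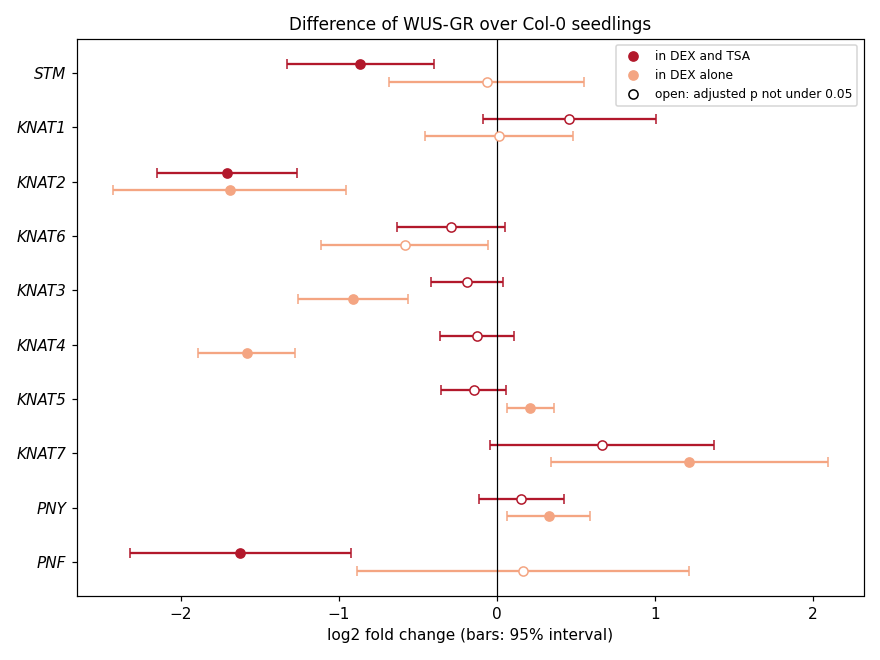
Difference of WUS-GR over Col-0 for each gene as log2 fold change with its 95% interval from edgeR, in DEX and TSA and in DEX alone; filled points passed an adjusted p under 0.05. *KNAT2* lies at -1.71 and -1.69 in the 2 conditions, while *KNAT4* lies at -0.12 with TSA and -1.58 without it.

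TSA-treated seedlings were compared with those in DEX alone within each genotype. In WUS-GR, 6 of the 10 genes were higher with TSA (*KNAT1*, *KNAT2*, *KNAT3*, *KNAT4*, *KNAT6* and *PNY*) and *KNAT5* was lower. In this comparison 73.7% of the 17079 genes tested passed, 35.6% higher and 38.1% lower. The groups did not overlap for the same 7 genes, against 75.9% of all genes tested. In Col-0, 7 of the 10 were higher (*STM*, *KNAT2*, *KNAT3*, *KNAT4*, *KNAT6*, *PNY* and *PNF*) and 0 were lower, where 64.2% of 17271 genes passed, 31.7% higher and 32.5% lower. The number lower in Col-0 was also 0 at an unadjusted p under 0.05 and with DESeq2, and 1 with library totals alone (*KNAT5*, log2 -0.24, edgeR adjusted p = 0.0292). The groups did not overlap for 8 of the 10 genes, against 69.0% of all genes tested. The median log2 fold change of the 10 genes was 1.08 in WUS-GR and 1.29 in Col-0, against -0.03 and 0.00 for all genes tested in the same fits. The green tissue markers *RBCS1A* and *LHCB1.1* also rose with TSA, and summed to 3120 to 3408 CPM in WUS-GR with DEX and TSA, against 1355 to 1596 in WUS-GR with DEX. In Col-0 they summed to 2469 to 2782 CPM with DEX and TSA, against 1333 to 1812 with DEX. Their part in the results was not tested.

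**Figure D3:**
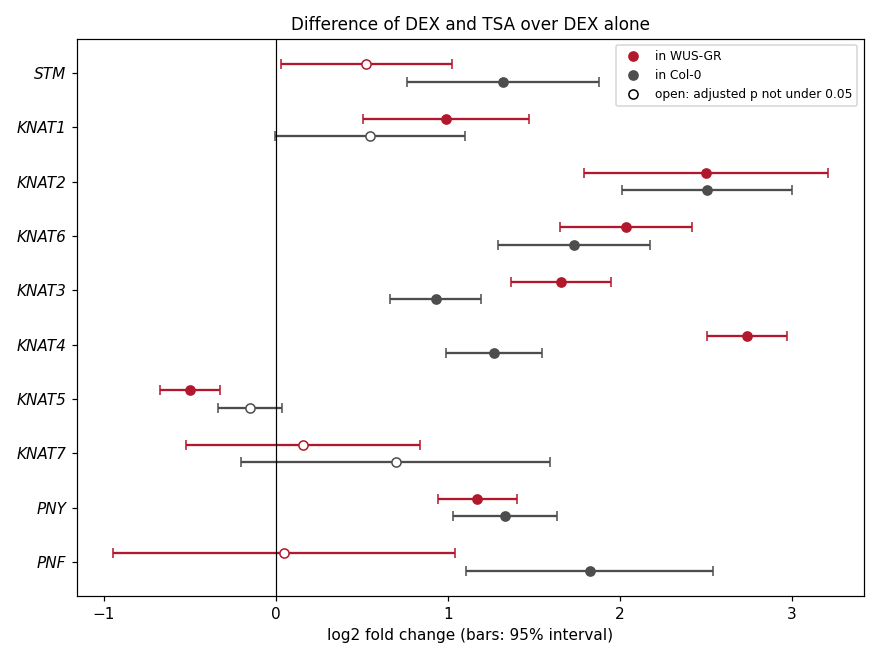
Difference of DEX and TSA over DEX alone for each gene as log2 fold change with its 95% interval from edgeR, in WUS-GR and in Col-0; filled points passed an adjusted p under 0.05. *KNAT2* lies at 2.50 and 2.51 in the 2 genotypes, and *KNAT4* at 2.74 in WUS-GR and 1.27 in Col-0.

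Whether the difference between genotypes itself changed with TSA was tested as the interaction of genotype and treatment over all 12 libraries. It passed for 4 of the 10 genes, with *KNAT3* and *KNAT4* higher and *KNAT5* and *PNF* lower, where 31.0% of the 17915 genes tested passed. Leaving out Col-0 DEX replicate 2 or 3, WUS-GR DEX replicate 2 or 3, or WUS-GR TSA replicate 1 left 2 genes, *KNAT3* and *KNAT4*. The 5 comparisons share libraries, since each group enters a comparison of genotypes, a comparison of treatments and the interaction, so they are given side by side and not as separate support for each other.

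**Figure D4:**
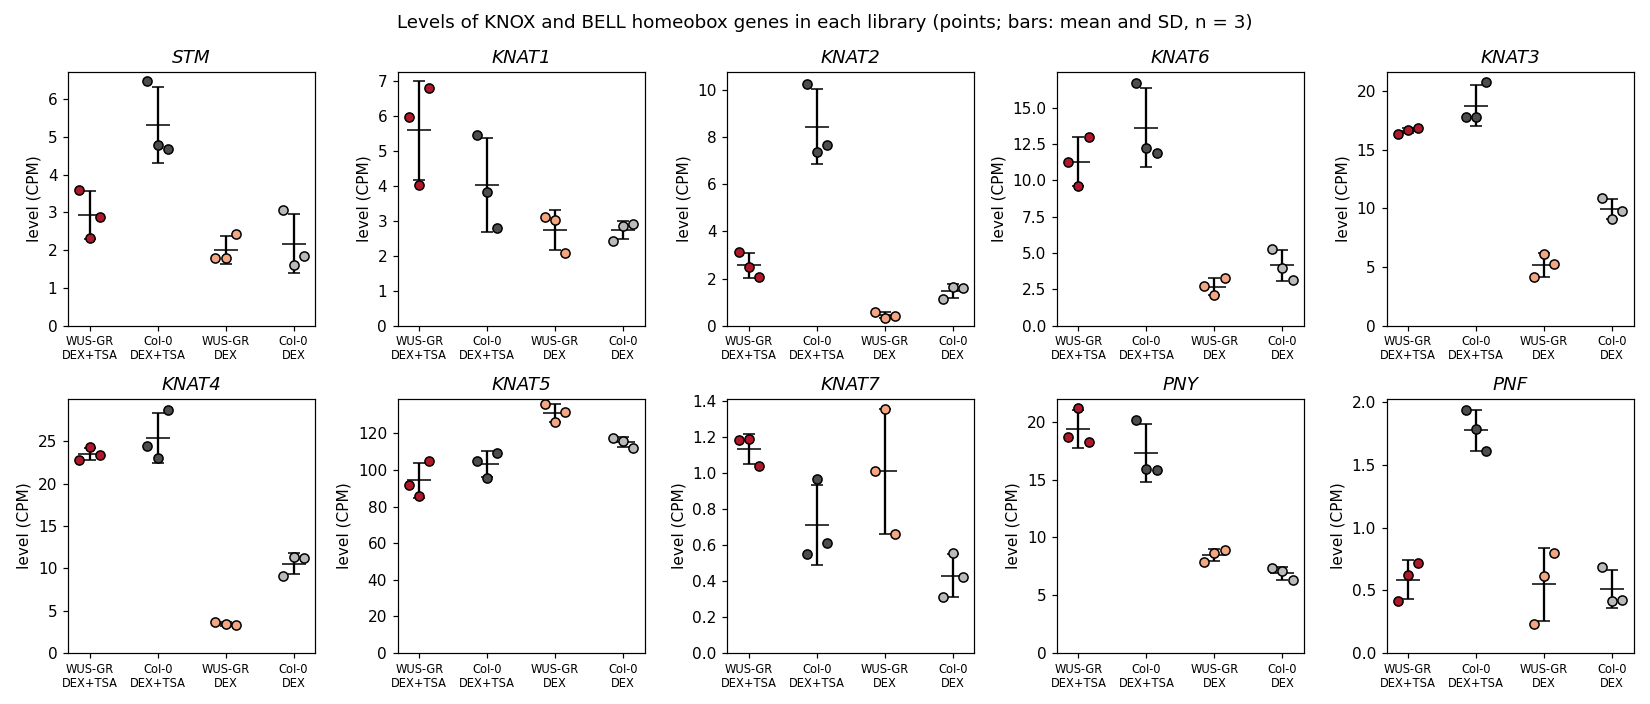
Level of each gene in CPM (linear axes from 0), with 1 point per library and a bar for the mean and SD of the 3 libraries of each group. *KNAT4* stays at 3.27 to 3.72 CPM in WUS-GR with DEX, below its 9.10 to 11.3 CPM in Col-0 with DEX, and at 22.9 CPM or more in the 6 libraries with TSA.

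Among the class I genes, *STM* (AT1G62360, chr1:23058582-23062063, minus strand), which keeps the shoot meristem active, differed between genotypes in the presence of TSA. It had 3.60, 2.32 and 2.88 CPM in WUS-GR with DEX and TSA, against 6.46, 4.79 and 4.68 CPM in Col-0 with DEX and TSA. The 3 WUS-GR libraries all lay below the 3 Col-0 libraries, at a log2 fold change of -0.86 ± 0.21 (SE, edgeR adjusted p = 0.00416). In DEX alone *STM* had 1.79, 1.80 and 2.43 CPM in WUS-GR, against 3.06, 1.62 and 1.84 CPM in Col-0. There the groups overlapped and the log2 fold change was -0.06, with a 95% interval of -0.68 to 0.55 (edgeR adjusted p = 0.859). This is bulk RNA, so fewer cells of a type and less RNA per cell cannot be told apart for any of these genes.

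With TSA, *STM* was 2.49-fold higher than without it in Col-0 (log2 1.32 ± 0.25 SE, edgeR adjusted p = 7.83e-04), where the groups did not overlap. In WUS-GR the log2 fold change with TSA was 0.53 ± 0.23 (SE), the groups overlapped and the edgeR adjusted p was 0.0531. It passed without WUS-GR DEX replicate 3 (log2 0.68, edgeR adjusted p = 0.0290) and without WUS-GR TSA replicate 2 (log2 0.68, edgeR adjusted p = 0.0256), and with DESeq2 size factors (log2 0.56, edgeR adjusted p = 0.0416). The interaction of *STM* was -0.77 ± 0.36 (SE) at an edgeR adjusted p of 0.118, so the larger response of Col-0 did not pass the test of the difference. Without Col-0 DEX replicate 1, the library with the highest *STM* level in its group, the interaction was -1.07 and passed (edgeR adjusted p = 0.0265).

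*KNAT1* (AT4G08150, chr4:5147699-5151159, minus strand), also known as *BREVIPEDICELLUS* for its role in pedicel and internode growth, did not pass in either comparison of genotypes over all libraries. It had 3.12, 3.02 and 2.08 CPM in WUS-GR with DEX, against 2.43, 2.87 and 2.92 CPM in Col-0 with DEX. Under TSA it had 5.96, 4.02 and 6.80 CPM in WUS-GR, against 5.47, 3.82 and 2.79 CPM in Col-0. The genotypes overlapped in both conditions. Its log2 fold changes were 0.02, with a 95% interval of -0.45 to 0.49, in DEX (edgeR adjusted p = 0.951) and 0.46, with -0.09 to 1.00, in DEX and TSA (edgeR adjusted p = 0.144). With TSA the difference passed without Col-0 TSA replicate 1 (log2 0.73, edgeR adjusted p = 0.0276) and without WUS-GR TSA replicate 2 (log2 0.66, edgeR adjusted p = 0.0430). TSA raised *KNAT1* 1.99-fold in WUS-GR without overlap (log2 0.99 ± 0.22 SE, edgeR adjusted p = 0.00151). In Col-0 the log2 fold change with TSA was 0.54 ± 0.25 (SE), with overlapping groups and an edgeR adjusted p of 0.0769, which became 0.0169 without Col-0 TSA replicate 3.

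*KNAT2* (AT1G70510, chr1:26576486-26582879, plus strand), a class I gene of the meristem and of carpel development, was lower in WUS-GR whether TSA was present or not. It had 0.597, 0.351 and 0.398 CPM in WUS-GR with DEX, from 13, 8 and 9 counts, against 1.12, 1.67 and 1.60 CPM in Col-0 with DEX, from 18, 36 and 34 counts. When TSA was present it had 3.13, 2.49 and 2.08 CPM in WUS-GR, against 10.3, 7.39 and 7.65 CPM in Col-0. The genotypes did not overlap in either condition. *KNAT2* was 3.23-fold lower in WUS-GR in DEX (log2 -1.69 ± 0.33 SE, edgeR adjusted p = 0.00128) and 3.27-fold lower in DEX and TSA (log2 -1.71 ± 0.20 SE, edgeR adjusted p = 1.59e-05). TSA raised it in each genotype, 5.66-fold in WUS-GR (log2 2.50 ± 0.32 SE, edgeR adjusted p = 1.12e-05) and 5.68-fold in Col-0 (log2 2.51 ± 0.22 SE, edgeR adjusted p = 1.88e-06). The interaction was 0.02, with a 95% interval of -0.80 to 0.84 (edgeR adjusted p = 0.962).

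*KNAT6* (AT1G23380, chr1:8297241-8302651, minus strand) acts with *STM* in the embryonic meristem and at organ boundaries. It had 2.71, 2.10 and 3.27 CPM in WUS-GR with DEX, against 5.30, 3.98 and 3.16 CPM in Col-0 with DEX, and the groups overlapped only through Col-0 replicate 3 and WUS-GR replicate 3. The log2 fold change was -0.58 ± 0.24 (SE) at an edgeR adjusted p of 0.0561. It was -0.75 and passed both without Col-0 DEX replicate 3 (edgeR adjusted p = 0.0177) and without WUS-GR DEX replicate 3 (edgeR adjusted p = 0.0402). It also passed with DESeq2 size factors (edgeR adjusted p = 0.0495), without a filter (edgeR adjusted p = 0.0483) and in one fit of 12 libraries (edgeR adjusted p = 0.0327). With DEX and TSA *KNAT6* had 11.3, 9.61 and 13.0 CPM in WUS-GR, against 16.7, 12.2 and 11.9 CPM in Col-0, with overlap and a log2 fold change of -0.29 ± 0.16 (SE, edgeR adjusted p = 0.141), which passed at -0.52 with library totals alone (edgeR adjusted p = 0.0143). TSA raised it 4.10-fold in WUS-GR (log2 2.03, edgeR adjusted p = 5.51e-07) and 3.32-fold in Col-0 (log2 1.73, edgeR adjusted p = 1.74e-05), with no overlap in either genotype. The interaction of 0.33 ± 0.29 (SE) did not pass (edgeR adjusted p = 0.422).

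Among the class II genes, *KNAT3* and *KNAT4* were lower in WUS-GR in DEX and did not pass in DEX and TSA, except with library totals alone. Both belong to a group that promotes differentiation redundantly in leaves and fruits. *KNAT3* (AT5G25220, chr5:8735944-8738601, plus strand) had 4.13, 6.13 and 5.26 CPM in WUS-GR with DEX, against 10.9, 9.12 and 9.81 CPM in Col-0 with DEX. It was 1.88-fold lower in WUS-GR, without overlap (log2 -0.91 ± 0.16 SE, edgeR adjusted p = 6.94e-04). In DEX and TSA it had 16.4, 16.7 and 16.8 CPM in WUS-GR, against 17.7, 17.7 and 20.8 CPM in Col-0. The 3 WUS-GR libraries still lay below the 3 Col-0 libraries, but the log2 fold change was -0.19, with a 95% interval of -0.42 to 0.04, and did not pass (edgeR adjusted p = 0.152). With library totals alone it was -0.42 and passed (edgeR adjusted p = 0.00407). TSA raised *KNAT3* 3.16-fold in WUS-GR (log2 1.66 ± 0.13 SE, edgeR adjusted p = 3.41e-07) and 1.90-fold in Col-0 (log2 0.93 ± 0.12 SE, edgeR adjusted p = 4.19e-05). The interaction was 0.76 ± 0.18 (SE, edgeR adjusted p = 0.00524).

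*KNAT4* (AT5G11060, chr5:3509833-3513741, plus strand) showed the same pattern with a larger difference. It had 3.72, 3.42 and 3.27 CPM in WUS-GR with DEX, against 9.10, 11.3 and 11.2 CPM in Col-0 with DEX. The lowest Col-0 library lay well above the highest WUS-GR library, and *KNAT4* was 2.99-fold lower in WUS-GR (log2 -1.58 ± 0.14 SE, edgeR adjusted p = 7.63e-06). Under TSA *KNAT4* had 22.9, 24.3 and 23.4 CPM in WUS-GR, against 24.4, 23.1 and 28.7 CPM in Col-0. These groups overlapped, at a log2 fold change of -0.12 with a 95% interval of -0.36 to 0.11 (edgeR adjusted p = 0.342). With library totals alone the log2 fold change was -0.35 and passed (edgeR adjusted p = 0.0108). TSA raised *KNAT4* 6.68-fold in WUS-GR (log2 2.74 ± 0.11 SE, edgeR adjusted p = 1.13e-09) and 2.41-fold in Col-0 (log2 1.27 ± 0.13 SE, edgeR adjusted p = 5.72e-06). The interaction of 1.50 ± 0.16 (SE, edgeR adjusted p = 8.99e-06) was the largest positive one among the 10 genes and passed in 18 of 18 alternative analyses. Scaling by library totals alone kept it at 1.17 but put *KNAT3* at 0.43 and an edgeR adjusted p of 0.0708.

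*KNAT5* (AT4G32040, chr4:15493989-15496381, plus strand), the most abundant of the 10 and a relative of *KNAT3* and *KNAT4*, moved the other way by small amounts. It had 136.1, 126.3 and 131.5 CPM in WUS-GR with DEX, against 117.4, 116.0 and 112.2 CPM in Col-0 with DEX, without overlap. The difference was 1.16-fold (log2 0.21 ± 0.07 SE, edgeR adjusted p = 0.0198). It was lost without Col-0 DEX replicate 2 (edgeR adjusted p = 0.0663), without Col-0 DEX replicate 3 (edgeR adjusted p = 0.0581) and without WUS-GR DEX replicate 1 (edgeR adjusted p = 0.0876), and in one fit of 12 libraries (edgeR adjusted p = 0.0610). The call was also lost with the replicate number as a block (edgeR adjusted p = 0.0523). In DEX and TSA *KNAT5* had 92.0, 86.1 and 105.1 CPM in WUS-GR, against 105.0, 95.6 and 109.6 CPM in Col-0, with overlap and a log2 fold change of -0.15 ± 0.09 (SE, edgeR adjusted p = 0.212), which passed at -0.38 with library totals alone (edgeR adjusted p = 0.00386). TSA lowered it 1.41-fold in WUS-GR (log2 -0.50 ± 0.08 SE, edgeR adjusted p = 1.29e-04). In Col-0 the log2 fold change with TSA was -0.15 ± 0.09 (SE) and did not pass, although the groups did not overlap (edgeR adjusted p = 0.144). The interaction of -0.32 ± 0.12 (SE) passed at an edgeR adjusted p of 0.0471, but in only 7 of 18 alternatives, over which the edgeR or DESeq2 adjusted p ran from 4.48e-04 to 0.108. It was lost without a filter and on leaving out any 1 of the 12 libraries except Col-0 TSA replicate 2 and WUS-GR TSA replicate 3.

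*KNAT7* (AT1G62990, chr1:23337167-23340692, plus strand), a repressor of secondary cell wall formation in fibres, was among the least abundant. It had 1.01, 1.36 and 0.663 CPM in WUS-GR with DEX, from 22, 31 and 15 counts, against 0.312, 0.555 and 0.425 CPM in Col-0 with DEX, from 5, 12 and 9 counts. It was 2.32-fold higher in WUS-GR, without overlap (log2 1.22 ± 0.39 SE, edgeR adjusted p = 0.0195). At these counts the call was lost without Col-0 DEX replicate 1 (edgeR adjusted p = 0.0577), without WUS-GR DEX replicate 1 (edgeR adjusted p = 0.0507), without WUS-GR DEX replicate 2 (edgeR adjusted p = 0.0907) and with DESeq2 (adjusted p = 0.0604). Under TSA *KNAT7* had 1.18, 1.19 and 1.04 CPM in WUS-GR, against 0.552, 0.968 and 0.614 CPM in Col-0. Again the groups did not overlap, and the log2 fold change of 0.66 ± 0.33 (SE) did not pass (edgeR adjusted p = 0.0994), except without Col-0 TSA replicate 2 (log2 0.95, edgeR adjusted p = 0.0462). The TSA differences were 0.16, with a 95% interval of -0.52 to 0.84, in WUS-GR (edgeR adjusted p = 0.660) and 0.70, with -0.20 to 1.59, in Col-0 (edgeR adjusted p = 0.148). *KNAT7* was thus the single *KNOX* gene here whose TSA response passed in neither genotype.

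The *BELL* gene *PNY* (AT5G02030, chr5:395567-399125, plus strand) encodes a partner of STM and KNAT1 that maintains the shoot meristem and inflorescence form. It had 7.90, 8.68 and 8.93 CPM in WUS-GR with DEX, against 7.36, 7.08 and 6.27 CPM in Col-0 with DEX, without overlap. The difference was 1.26-fold (log2 0.33 ± 0.12 SE, edgeR adjusted p = 0.0355). It was lost with DESeq2 (adjusted p = 0.135) and without each of 4 libraries, namely Col-0 DEX replicates 2 and 3 (edgeR adjusted p = 0.0763 and 0.111) and WUS-GR DEX replicates 2 and 3 (edgeR adjusted p = 0.0924 and 0.0984). The call was also lost with the replicate number as a block (edgeR adjusted p = 0.0743). When TSA was present *PNY* had 18.7, 21.2 and 18.2 CPM in WUS-GR, against 20.2, 15.9 and 15.8 CPM in Col-0, with overlap and a log2 fold change of 0.16 ± 0.12 (SE, edgeR adjusted p = 0.301). TSA raised it 2.25-fold in WUS-GR (log2 1.17 ± 0.11 SE, edgeR adjusted p = 9.12e-07) and 2.52-fold in Col-0 (log2 1.33 ± 0.14 SE, edgeR adjusted p = 7.27e-06). The interaction of -0.14 had a 95% interval of -0.50 to 0.22 (edgeR adjusted p = 0.579).

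*PNF* (AT2G27990, chr2:11921350-11924748, minus strand), the close relative that acts redundantly with *PNY* in the transition to flowering, was lower in WUS-GR in the presence of TSA. It had 0.413, 0.622 and 0.720 CPM in WUS-GR with DEX and TSA, from 7, 11 and 9 counts, against 1.93, 1.78 and 1.61 CPM in Col-0 with DEX and TSA, from 35, 35 and 34 counts. It was 3.08-fold lower in WUS-GR, without overlap (log2 -1.62 ± 0.32 SE, edgeR adjusted p = 6.95e-04). In DEX it had 0.230, 0.613 and 0.796 CPM in WUS-GR, from 5, 14 and 18 counts, against 0.686, 0.416 and 0.425 CPM in Col-0, from 11, 9 and 9 counts. The groups overlapped there, and the log2 fold change of 0.17 had a wide 95% interval of -0.89 to 1.22 (edgeR adjusted p = 0.781). TSA raised *PNF* 3.54-fold in Col-0 (log2 1.83 ± 0.33 SE, edgeR adjusted p = 3.65e-04), while in WUS-GR the log2 fold change was 0.05, with a 95% interval of -0.95 to 1.04 (edgeR adjusted p = 0.931). The interaction was -1.75 ± 0.57 (SE, edgeR adjusted p = 0.0272). It passed in 12 of 17 alternatives and was lost without Col-0 DEX replicate 2 (edgeR adjusted p = 0.0655) or 3 (edgeR adjusted p = 0.0558), WUS-GR DEX replicate 2 (edgeR adjusted p = 0.0651) or 3 (edgeR adjusted p = 0.101), and WUS-GR TSA replicate 1 (edgeR adjusted p = 0.0716).

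Across the 12 libraries, log2 CPM of *KNAT3* and *KNAT4* were the most alike pair of the 10 (Pearson r = 0.973), and *KNAT4* and *KNAT5* the most opposed (r = -0.861). *STM* had r = 0.842 with *PNF*, 0.842 with *KNAT6*, 0.820 with *KNAT2* and 0.699 with *PNY*, and differences between these values were not tested. These values describe 12 libraries from 4 groups that share the same treatments. Among 14150 other genes with a mean log2 CPM over 1, the gene most like each of the 10 was *APX1* for *KNAT4* (r = 0.997), AT2G40270 for *KNAT3* (r = 0.991), *CDF2* for *KNAT6* (r = 0.989), *HTA2* for *PNY* (r = 0.989) and *IAA18* for *KNAT2* (r = 0.984). For the others it was AT5G35100 for *KNAT5* (r = 0.972), AT5G01390 for *STM* (r = 0.964), *FAB1A* for *KNAT7* (r = 0.946), *PHF1* for *KNAT1* (r = 0.935) and AT5G47900 for *PNF* (r = 0.929).

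The remaining *BELL* genes, which encode further partners of KNOX proteins, and *KNATM*, which encodes a KNOX protein without a homeodomain, made a list of 12, of which 11 were tested between genotypes. In DEX, 6 were higher in WUS-GR and 4 lower, where 57.9% of all genes tested passed, 29.3% higher and 28.6% lower. The median log2 fold change of the list was 0.40 there, against 0.02 for all genes tested. In DEX and TSA, 3 were higher and 4 lower, with a median of -0.11, where 54.8% of all genes tested passed, with 27.8% lower. *ATH1*, a partner of STM in meristem maintenance that was chosen after its values were seen, had 21, 35 and 18 counts in WUS-GR with DEX, against 53, 58 and 45 in Col-0 with DEX. With DEX and TSA it had 23, 22 and 16 counts in WUS-GR, against 149, 172 and 157 in Col-0. It was lower in WUS-GR in both conditions, at log2 -1.26 ± 0.29 (SE, edgeR adjusted p = 0.00408) in DEX and -2.66 ± 0.19 (SE, edgeR adjusted p = 1.95e-07) in DEX and TSA, and its interaction was -1.37 ± 0.34 (SE, edgeR adjusted p = 0.00673). These calls of *ATH1* held in every alternative analysis.

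Of the same list, *BLH1* fell the most in WUS-GR in DEX (log2 -1.72 ± 0.11 SE, edgeR adjusted p = 1.19e-06), though 929 bp of its exons overlap AT2G35945 on the opposite strand and the strand setting of the counting is not given in the sources used here. *BLH11* had the largest rise, at 47 counts summed over the 3 WUS-GR libraries with DEX against 8 over the 3 Col-0 libraries with DEX, a ratio of 5.14 with a 95% exact interval of 2.41 to 12.6 that covers counting error only and leaves out the spread between replicates (edgeR adjusted p = 0.00109). In the interaction *BEL1*, a regulator of ovule integument identity, had the largest rise (log2 1.87 ± 0.33 SE, edgeR adjusted p = 5.66e-04) and *BLH11* the largest fall (log2 -1.88 ± 0.62 SE, edgeR adjusted p = 0.0228). The interaction of *BLH11* rests on those few counts and was lost with DESeq2 (adjusted p = 0.0700) and without Col-0 DEX replicate 2 (edgeR adjusted p = 0.0766), WUS-GR DEX replicate 3 (edgeR adjusted p = 0.0501) or WUS-GR TSA replicate 2 (edgeR adjusted p = 0.0511). With TSA, 7 of the 11 genes tested were higher and 1 lower in WUS-GR, where 35.6% of all genes tested were higher and 38.1% lower. In Col-0, 8 of 10 were higher, against 31.7% of all genes tested.

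The list of genes that restrain class I *KNOX* expression or mark organ boundaries had 11 members, of which 4 were tested in DEX. *BOP2*, which acts at leaf bases, and *FIL* were lower in WUS-GR, *BOP2* at log2 -1.09 ± 0.29 (SE, edgeR adjusted p = 0.00890), with 395 bp of overlap with AT2G41375 on the opposite strand. Of all genes tested in DEX, 28.6% were lower and 29.3% higher. In DEX and TSA, 4 of the 6 tested were lower and 0 higher in edgeR, with 1 of these 6 higher at an unadjusted p under 0.05 and 0 of these 6 with DESeq2. In the interaction 0 of 6 passed in edgeR, at an unadjusted p under 0.05 and with DESeq2 alike. Of all genes tested, 31.0% passed the interaction in edgeR. Of 7 reported targets of KNOX proteins, 4 were tested. Of these 4, 1 passed between genotypes in DEX, where 57.9% of all genes tested passed. It was the lignin gene *CCOAOMT1*, higher in WUS-GR (log2 1.55 ± 0.07 SE, edgeR adjusted p = 2.41e-07). The other 3 did not pass, with *COMT1* at log2 -0.114, *GA2OX2* at -0.120 and *GA2OX4* at 0.535. Of the same 4, 2 were higher and 1 lower in WUS-GR in DEX and TSA, where 54.8% of all genes tested passed. In the interaction *COMT1*, also of lignin synthesis, was higher (log2 0.92 ± 0.15 SE, edgeR adjusted p = 3.06e-04), and *GA2OX2*, which inactivates gibberellin, was lower (log2 -1.01 ± 0.24 SE, edgeR adjusted p = 0.00489). *GA20OX1*, a gibberellin synthesis gene that STM is known to repress, had 8, 2 and 2 counts in WUS-GR with DEX and TSA and 20, 11 and 6 in WUS-GR with DEX, against 0 in all 6 Col-0 libraries, and was not tested.

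Of 17 OVATE family genes, whose products bind TALE proteins, 7 were tested in DEX, with 2 higher and 4 lower in WUS-GR. *OFP15* rose the most (log2 2.19 ± 0.30 SE, edgeR adjusted p = 1.11e-04) and *OFP2* fell the most (log2 -4.07 ± 0.47 SE, edgeR adjusted p = 2.12e-05). *OFP2* had 7, 30 and 5 counts in WUS-GR, against 139, 230 and 273 in Col-0, and its log2 fold change was -5.26 without WUS-GR DEX replicate 2. *OFP13* had the largest rise in the interaction (log2 1.39 ± 0.32 SE, edgeR adjusted p = 0.00402). Of 9 secondary wall genes, 4 were tested and 3 were higher in WUS-GR in DEX, the cellulose synthase gene *CESA7* the most (log2 1.49 ± 0.25 SE, edgeR adjusted p = 6.06e-04), with 66 bp of overlap on the opposite strand. In DEX and TSA all 4 were higher in edgeR, against 3 with DESeq2 and 3 with library totals alone. In the interaction 0 of 4 passed in edgeR, with 1 at an unadjusted p under 0.05 and 0 with DESeq2. These counts stand against the 57.9%, 54.8% and 31.0% of all genes that passed in the same fits.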

How the data were processed

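Reads of poly(A)-selected, directional libraries were aligned by the authors to TAIR10 with HISAT2 and counted per gene with featureCounts, and the deposited counts are raw whole numbers without normalization. The strand setting, the annotation release and the treatment of reads with several matches are not given in the sources used here.

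Counts were tested with edgeR 4.0.16 in R 4.3.3 (TMM, filterByExpr with a minimum count of 10, quasi-likelihood F-test, two-sided, Benjamini-Hochberg over all genes tested, threshold 0.05). Each comparison of groups was fitted with one factor on its 6 libraries, and the interaction with both factors on all 12. SE and 95% intervals come from the fitted coefficients and their quasi-dispersion. Levels are TMM-scaled CPM. Replicates differed beyond sampling noise (7.40 to 17.1 chi-square units per degree of freedom), so all were kept. The labels name no batch. The procedures were tested on simulated data in which only a small part of the genes changed, so that test did not cover the choice of scaling.

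The members and lists were chosen with earlier results of these data known. All 10 members are named, and from each list the genes with the largest rise and fall past the threshold in the comparison of genotypes in DEX and in the interaction. *ATH1*, *FIL*, *GA20OX1*, *AS2* and *LOB* were named after their values were seen. The most alike gene had the highest Pearson r of log2 CPM with a prior count of 2. Of the 34262 identifiers, 95.0% matched the TAIR10.1 RefSeq annotation, which gave symbols, positions and sequences. Alternatives were DESeq2 size factors, library totals alone, no filter, a minimum of 10 counts throughout, a block for the replicate number, DESeq2 1.42.0, one fit of 12 libraries, and leaving out each library. Their use on the lists was added after seeing the data.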

Additional observations from a re-analysis of the deposited data

Results flagged for a closer look

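For 4 of the 10 genes the difference of WUS-GR over Col-0 changed with TSA, by the interaction test of edgeR over 12 libraries, where 31.0% of all genes passed. *KNAT4* was flagged at a log2 interaction of 1.50 and *KNAT3* at 0.76, with log2 fold changes of WUS-GR over Col-0 of -0.12 for *KNAT4* and -0.19 for *KNAT3* in DEX and TSA, which did not pass, and -1.58 and -0.91 in DEX, which did. *KNAT5* was flagged at -0.32, with log2 fold changes of WUS-GR over Col-0 of -0.15 in DEX and TSA and 0.21 in DEX. *PNF* was flagged at -1.75, with -1.62 in DEX and TSA and 0.17 in DEX, from 5 to 35 counts per library. The TMM factors of 0.842 to 0.850 in the WUS-GR libraries with TSA, against 0.981 to 1.13 in the other groups, enter each of these values. With library totals alone the interactions were 1.17 for *KNAT4*, 0.43 for *KNAT3*, -0.65 for *KNAT5* and -2.11 for *PNF*.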

How the results depend on the processing

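Over the 10 genes and 5 comparisons, 689 values were recomputed under alternatives, of which 613 kept direction and side of the threshold, 32 lost the call, 20 gained it and 24 changed sign. Scaling by library totals alone put the log2 fold change of the median gene at -0.24 for genotype in DEX and TSA (2775 genes higher and 7020 lower, against 4555 and 4698 with TMM), at -0.41 for TSA in WUS-GR (3855 and 9210, against 6077 and 6502) and at -0.32 for the interaction (1570 and 5736, against 3176 and 2384). With it 7 members were called between genotypes in DEX and TSA in place of 3, and signs changed for *PNY* in that comparison (-0.076), for *KNAT7* (-0.227) and *PNF* (-0.334) with TSA in WUS-GR, and for *KNAT2* in the interaction (-0.307). In the interaction it brought *STM* (-1.09, edgeR adjusted p = 0.0250) and *PNY* (-0.46, edgeR adjusted p = 0.0467) past the threshold. In DEX the sign of *KNAT1* between genotypes, 0.02 with TMM, changed with DESeq2 size factors (-0.001) and in one fit of 12 libraries (-0.008).

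Leaving out 1 library at a time gave 4 to 6 members called between genotypes in DEX, 3 to 4 in DEX and TSA, 7 to 8 for TSA in WUS-GR, 7 to 8 for TSA in Col-0, and 2 to 4 in the interaction. Sign changes on leaving out a library touched uncalled values only: between genotypes in DEX *KNAT1* ran from -0.082 to 0.180, *STM* from -0.252 to 0.236 and *PNF* from -0.204 to 0.523, with TSA in WUS-GR *KNAT7* ran from -0.076 to 0.431 and *PNF* from -0.306 to 0.407, and in the interaction *KNAT2* ran from -0.164 to 0.270.

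With the replicate number as a block, 4 members were called between genotypes in DEX in place of 6 (*KNAT5* and *PNY* lost, edgeR adjusted p = 0.0523 and 0.0743), and 3, 7, 7 and 4 in the other comparisons, with 9155, 9551, 12567, 11313 and 5721 of all genes. Correlations of same-numbered libraries ran from -0.287 to 0.162, which did not settle whether the numbers pair the samples. Every library correlated best with its own number in the comparison of genotypes with TSA and in that of TSA in Col-0, and not in the others. A minimum of 10 counts in every library left *KNAT2*, *KNAT7* and *PNF* untested in some comparisons, and no value was given there. For the values that changed call or sign, the cause was not tested. Depth limits *KNAT7* and *PNF* most, at 5 to 31 and 5 to 35 counts per library.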
